A study of Mus musculus with 3 samples.

Results

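The immunity-related GTPases (IRG proteins) are described here through the 5 genes Iigp1, Tgtp2, Igtp, Irgm1 and Irgm2, out of 22908 features with a gene symbol on the arrays. The genes were chosen from the measured values of these same 3 arrays, in which interferon-stimulated genes stood higher on 1 of them, so the differences between arrays are given as a description with no test. A probe was assigned to a gene through the transcript accession of its spot, which gave 1 probe each for Iigp1, Tgtp2, Igtp and Irgm2 and 3 probes for Irgm1. All 7 probes were well above background on all 3 arrays and none was saturated.

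IRG proteins are GTPases that cells make when interferons reach them, and they are best known for coating and breaking the vacuoles in which parasites and bacteria live. Effector members, which have a lysine in the first motif of the GTP-binding site, load onto these vacuoles. Regulatory Irgm members have a methionine there, sit on the membranes of the cell itself and hold the effectors inactive at those membranes. Their genes are switched on through the gamma-activated site (GAS), and by IRF proteins, which bind the interferon-stimulated response element (ISRE). Guanylate-binding proteins and the conjugation system of autophagy take part in directing IRG proteins to a vacuole.

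The cells were Hepa1c1c7, a mouse hepatoma cell line, and the labels name liver as the tissue. They were transfected with an empty vector (pCMV6), with a vector for Mst1r, a receptor tyrosine kinase, or with a vector for Slpi, a secreted inhibitor of proteases. The study's methods give a culture of a day after transfection, the same transfection reagent for all groups, and name no interferon treatment. Each group was 1 single-colour array, so no difference below has a replicate check, and both vector arrays were set against the same empty vector array. All arrays were on 1 slide, and their positions on it cannot be told apart from the groups. The arrays are named by their labels.

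The array probes of the transfected genes did not show the transfection. The probe of Mst1r read 4.15, 4.08 and 3.70 on the arrays labelled empty, Mst1r and Slpi, at background on all 3. The brighter of 2 Slpi probes read 6459, 3843 and 6680, which is a scaled log2 difference of 0.13 ± 0.13 between the array labelled Slpi and the empty vector array. The dimmer one read 106, 91.7 and 85.8. Both Slpi probes carry the accession of the transcript that the methods name for the Slpi clone. The Mst1r probe carries another accession than the one named for the Mst1r clone. Whether any of these probes lies inside the open reading frame carried by a vector is not given in the sources used here. The study reported overexpression of Mst1r in transfected Hepa1c1c7 cells by real-time PCR, which was not analysed here. Of 11 hepatocyte markers, 6, 7 and 8 were well above background on the 3 arrays in the same order, among them Alb, Afp, Trf, Foxa2, Krt8 and Krt18, whereas Apob and Hnf4a were not on any. Of 7 macrophage markers, 5, 4 and 4 were well above background, and their summed signal was 6426, 6616 and 6287. Csf1r, Cd68, Cd14 and Itgam were above background on all arrays, and Adgre1 and Ptprc on none. Of the other lists, Cd3e of 3 T cell markers, Pecam1 of 3 endothelial markers and Col1a1 and Pdgfrb of 3 fibroblast markers were above background on all arrays. Their summed signals were 537, 541 and 584 for T cell, 44.8, 42.8 and 31.1 for endothelial and 7136, 7231 and 6341 for fibroblast markers, and their part in the results was not tested.

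The regulatory letters in front of the members were read first, because the members are known as targets of GAS and ISRE elements. RefSeq promoters (GRCm38.p6, 250 bases before to 50 bases after the start of the gene) were given for 4 of the 5 members and 7 of 11 other IRG genes. The member without one was Iigp1, so its promoter was not read. Both strands were searched for the GAS letters TTCNNNGAA and the ISRE core letters GAAANNGAA, which share no base in the members listed here. Of 32851 promoters of the same length, 8.30% held the GAS letters, 8.56% the ISRE core letters and 1.07% both. Windows of 60 bases around the matches are shown for the 4 members, with the matches in capitals, and then for the near-identical copy of Tgtp2, Tgtp1, and for Gm12185.
Tgtp2: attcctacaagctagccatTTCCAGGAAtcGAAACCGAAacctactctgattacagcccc
Igtp: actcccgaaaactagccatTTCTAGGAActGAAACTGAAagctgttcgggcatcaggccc
Irgm2: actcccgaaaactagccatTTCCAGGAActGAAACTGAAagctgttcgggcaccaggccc
Irgm1: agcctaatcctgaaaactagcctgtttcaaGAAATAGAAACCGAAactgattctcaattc
Tgtp1: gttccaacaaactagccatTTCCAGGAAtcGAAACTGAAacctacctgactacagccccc
Gm12185: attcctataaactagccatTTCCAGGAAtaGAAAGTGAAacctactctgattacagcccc

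The windows lie at chr11:49064253-49064312 (minus strand) for Tgtp2, chr11:58199492-58199551 (plus strand) for Igtp, chr11:58214883-58214942 (plus strand) for Irgm2 and chr11:48871421-48871480 (minus strand) for Irgm1. Those of the other genes are chr11:48992294-48992353 for Tgtp1 and chr11:48927228-48927287 for Gm12185, both on the minus strand. In Tgtp2, Igtp and Irgm2 the GAS letters came first and the ISRE core letters followed, and the same order was found in Tgtp1 and Gm12185. The GAS match began 81 bases before the start in Tgtp2, 45 in Igtp and 75 in Irgm2. Irgm1 had no GAS match and had 2 ISRE core matches that overlap, from 30 and from 24 bases before the start.

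The promoters of Igtp and Irgm2 were alike, with 92.1% identical bases in a global alignment, and the genes are direct neighbours in the RefSeq order. The promoter of Tgtp2 had 96.6% identical bases with that of Gm12185 and 74.0% with that of Tgtp1. Among the members, Igtp and Irgm2 were the only such pair, since the other pairs shared 55.9% to 60.3% of aligned bases. A match describes letters only and no binding was measured in these samples.

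**Figure D1:**
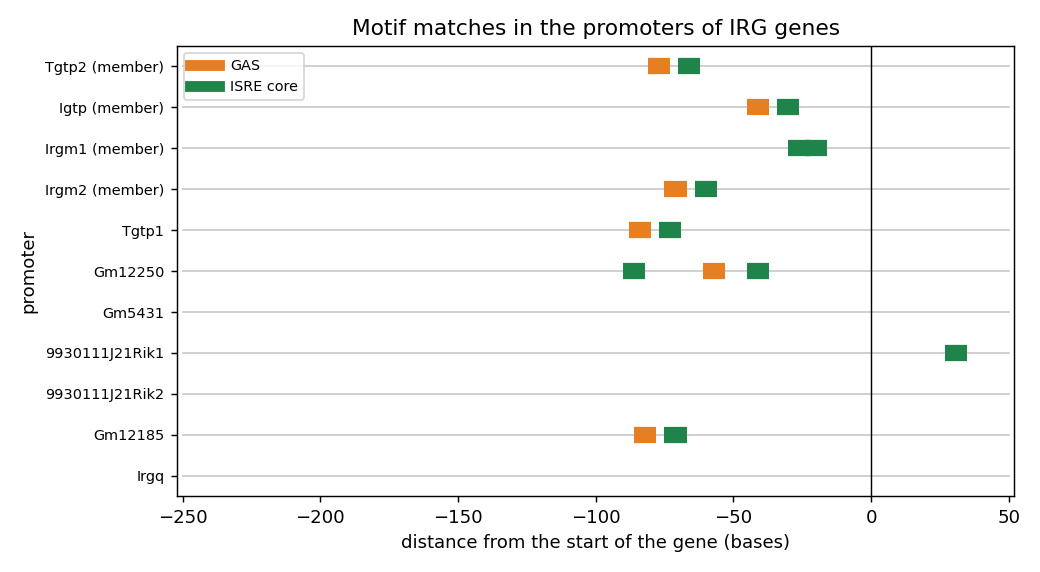
Position of GAS and ISRE core letters (boxes) in the RefSeq promoters of 4 IRG members and 7 other IRG genes, by distance from the start of the gene in bases. In Tgtp2, Igtp and Irgm2 a GAS match lies just before an ISRE core match, and Irgm1 has 2 overlapping ISRE core matches and no GAS match.

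Signals below are processed signals, the brightness of a spot on a linear scale after background subtraction, and log2 differences are between signals divided by the 75th percentile of their array (268, 229 and 254 for empty, Mst1r and Slpi). The ± value of a log2 difference combines the SDs that repeated spots on 1 array give at the signals of both arrays compared. That of a gap between genes or classes combines the ± values of the log2 differences in it. These values cover no variation between cultures.

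Iigp1 (Irga6), an effector that loads onto the parasite vacuole, had a processed signal of 310 on the empty vector array, 2827 on the array labelled Mst1r and 260 on the array labelled Slpi. The array labelled Mst1r stood far above the other 2 arrays, with a scaled log2 difference from empty vector of 3.42 ± 0.13, or 10.7-fold. Between the arrays labelled Mst1r and Slpi the log2 difference was 3.59 ± 0.13 (12.1-fold). The array labelled Slpi was slightly lower than empty vector, by a log2 difference of -0.18 ± 0.14. In whole cultures, more RNA per cell and more cells with that RNA cannot be told apart, here and below.

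The single probe of Iigp1 lay in row 56, within the upper rows (1 to 128 of 384), where stray signal was seen. Control spots that should be dark exceeded a signal of 50 on 3.31%, 3.81% and 3.08% of such spots in these rows of the empty, Mst1r and Slpi arrays, against 0, 2 and 3 spots in all lower rows. The brightest stray control spot read 481. The Iigp1 signal on the array labelled Mst1r was above this level and its signals on the other 2 arrays were below it, and the part of stray signal in the Iigp1 difference was not tested. All probes of the other 4 members lay in lower rows.

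Tgtp2 (also written Irgb6) is an effector gene named after T cells, although the cells here were hepatoma cells. It had processed signals of 1954, 3996 and 1980 on the arrays labelled empty, Mst1r and Slpi. The array labelled Mst1r was again the high one and the other 2 lay close together. The log2 difference was 1.26 ± 0.12 (2.40-fold) between Mst1r and empty vector and 0.10 ± 0.12 between Slpi and empty vector. Tgtp1 is a near-identical copy of Tgtp2 with no matched probe, so the probe may read both transcripts and their signals cannot be told apart.

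Igtp (Irgm3), a regulatory member found on the endoplasmic reticulum and on lipid droplets, had processed signals of 2278, 4573 and 2072 in the same order. Its log2 difference between Mst1r and empty vector was 1.24 ± 0.13 (2.36-fold), and that between Slpi and empty vector was -0.06 ± 0.12, within the SD between spots. The local background around this spot was marked as a population outlier on all 3 arrays and as non-uniform on the empty vector array. Its median of 23 to 25 was small beside the signal.

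Irgm1, a regulatory member of the Golgi and of mitochondria that is also tied to autophagy, had processed signals of 3319, 4239 and 2829 at its brightest probe. The other 2 probes read 737, 846 and 670, and 2161, 2784 and 1904. All 3 probes put the array labelled Mst1r highest and the array labelled Slpi lowest. Their log2 differences between Mst1r and empty vector were 0.58 ± 0.13, 0.43 ± 0.14 and 0.60 ± 0.12, and those between Slpi and empty vector were -0.15 ± 0.12, -0.06 ± 0.14 and -0.10 ± 0.12.

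Irgm2, a regulatory member of the Golgi, had processed signals of 1213, 1561 and 1122. The array labelled Mst1r was 1.51-fold above empty vector, a log2 difference of 0.59 ± 0.12, and the array labelled Slpi differed from empty vector by a log2 difference of -0.03 ± 0.12. Irgm1 and Irgm2 therefore moved by almost the same amount, with a gap between their log2 differences of -0.01 ± 0.17.

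**Figure D2:**
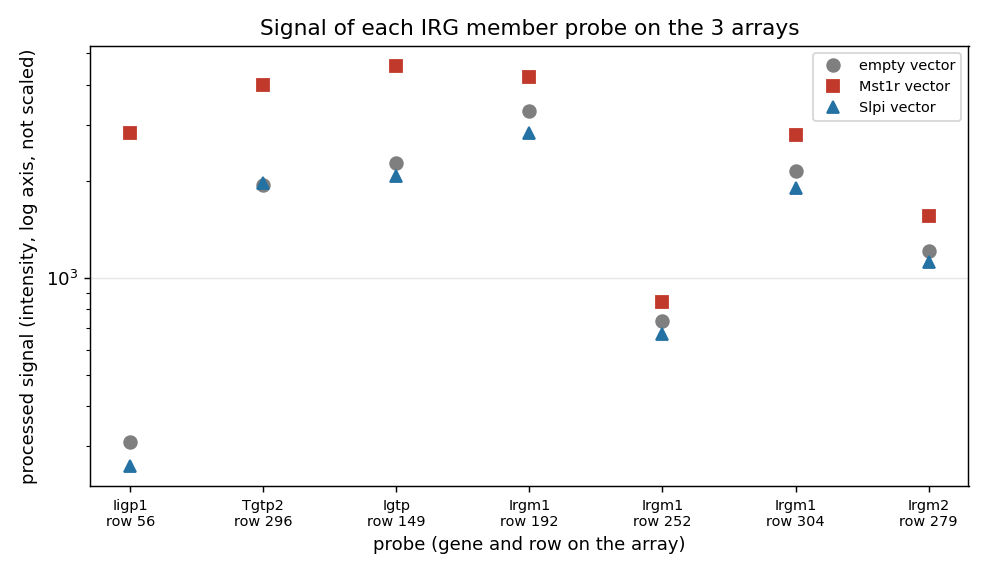
Processed signal (intensity, log axis, not scaled between arrays) of each of the 7 IRG member probes on the 3 arrays, 1 point per array. For every probe the array labelled Mst1r is highest, and for Iigp1 it reads 2827 against 310 and 260. Heights of different probes are not comparable.

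Across the members, 5 of 5 had a log2 difference above 0 between the arrays labelled Mst1r and empty vector, where 42.1% of the 17956 features with enough signal did. At least 2-fold higher were 3 of 5, namely Iigp1, Tgtp2 and Igtp, against 4.4% of all features, and 0 of 5 were at least 2-fold lower, against 3.45%. The median log2 difference was 1.24 over the members and -0.04 over all features. Since the members were picked for this contrast, nothing is read from these shares.

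Between the arrays labelled Slpi and empty vector, 0 of 5 members were at least 2-fold higher and 0 of 5 at least 2-fold lower, where 2.73% and 3.26% of 17815 features were. Tgtp2 alone had a log2 difference above 0, which 50.3% of all features had. The median was -0.06 over the members and 0.00 over all features. The member differences lay between -0.18 and 0.10, and their signs depended on how the arrays were scaled for all members except Iigp1.

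Set directly against each other, the arrays labelled Mst1r and Slpi gave 3 of 5 members at least 2-fold higher on the former, against 4.22% of 17666 features, and 0 of 5 at least 2-fold lower, against 2.73%. All 5 log2 differences were above 0, as were 44.7% of those of all features. They were 3.59 for Iigp1, 1.29 for Igtp, 1.17 for Tgtp2, 0.74 for Irgm1 and 0.63 for Irgm2. The median was 1.17 over the members and -0.03 over all features. The array labelled Mst1r, for which the members were picked, is also in this comparison, so nothing is read from these shares either.

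**Figure D3:**
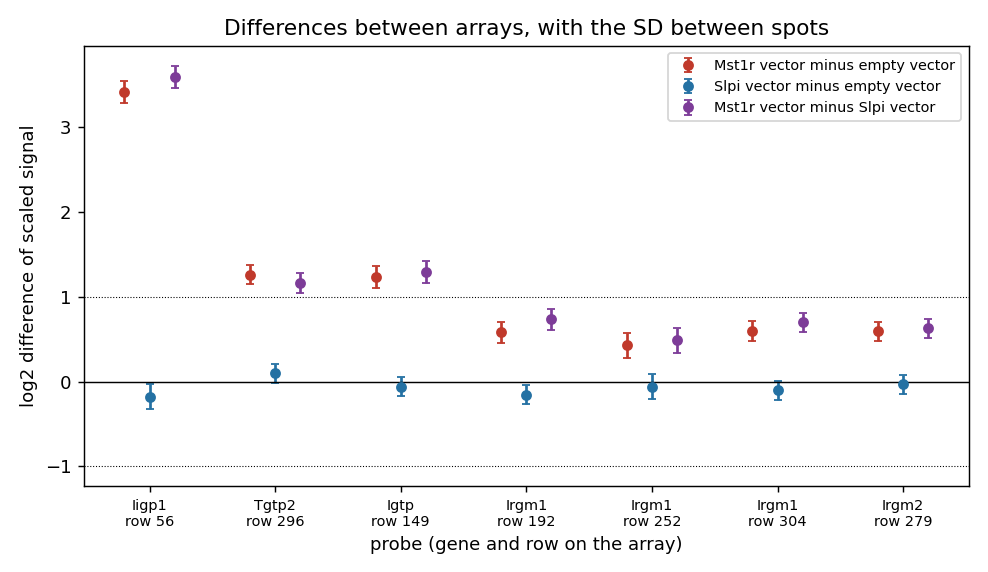
Log2 difference of scaled signal for each IRG member probe in the 3 comparisons of arrays. Error bars combine the SDs between repeated spots at the signals of both arrays compared, and dotted lines mark a 2-fold difference. Both comparisons that involve the array labelled Mst1r lie above 0 for all 7 probes, while Slpi against empty vector stays between -0.18 and 0.10.

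The order of the members placed Iigp1 first, then Tgtp2 and Igtp together, then Irgm1 and Irgm2 together. For Mst1r against empty vector, the log2 difference of Iigp1 was larger than that of Tgtp2 by 2.16 ± 0.17. That of Igtp was larger than the mean of Irgm1 and Irgm2 by 0.65 ± 0.15. Tgtp2 and Igtp, an effector and a regulatory gene, differed by 0.03 ± 0.17, which is within the SD between spots.

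By class, the mean log2 difference for Mst1r against empty vector was 2.34 over the 2 effector genes and 0.80 over the 3 regulatory genes. The gap between the classes was 1.54 ± 0.11, and it was 1.49 ± 0.11 for Mst1r against Slpi and 0.04 ± 0.11 for Slpi against empty vector. The gap rested on Iigp1. With Tgtp2 as the only effector, it fell to 0.46 for Mst1r against empty vector and to 0.28 for Mst1r against Slpi. With 2 genes in 1 class and 3 in the other, and 1 array per group, the classes cannot be tested against each other.

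Among the 17956 features of the Mst1r and empty vector comparison, 1.57% had a log2 difference at least as high as that of Iigp1. The corresponding share was 3.67% for Tgtp2, 3.73% for Igtp, 7.04% for Irgm2 and 7.15% for Irgm1. Of the 790 features at least 2-fold higher on the array labelled Mst1r, 71.6% had their probe in rows 1 to 128. Among the 9950 features brighter than the brightest stray control spot on the brighter array, 107 (1.08%) were past 2-fold upward and 11 (0.11%) downward. Iigp1 passed this filter through the array labelled Mst1r alone.

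**Figure D4:**
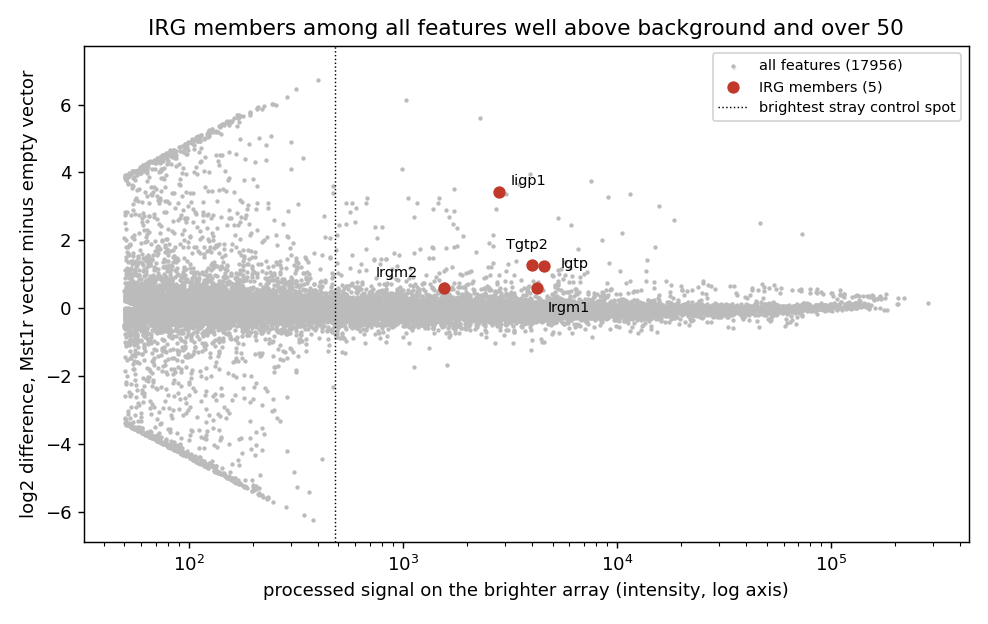
Log2 difference between the arrays labelled Mst1r and empty vector for 17956 features (grey) and the 5 IRG members (red), against the processed signal on the brighter array (log axis). All 5 members lie to the right of the brightest stray control spot (dotted line, 481), and Iigp1 lies at 3.42, above the other 4.

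In the RefSeq gene order, Igtp and Irgm2 directly follow Gm12250, and Irgm1 and Tgtp2 are at the ends of a run, broken by a few other entries, that holds Gm5431, Gm12185, 9930111J21Rik1, Tgtp1 and 9930111J21Rik2. Iigp1 comes shortly after Gm4951, Gm4841 and F830016B08Rik. Irgc1 and Irgq form a further group. Of these 11 other IRG genes, 10 had a probe and 6 had enough signal. Between the arrays labelled Mst1r and empty vector, 1 of the 6 was at least 2-fold higher, 0 were lower and 5 were above 0, with a median log2 difference of 0.09 (4.4%, 3.45% and 42.1% over all features). Between Slpi and empty vector 0 of 6 passed 2-fold in either direction, 1 was above 0 and the median was -0.07 (2.73% higher, 3.26% lower and 50.3% above 0 over all features).

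Gm4951, an IRG gene of the neighbourhood of Iigp1, had processed signals of 78.4, 576 and 70.0 on the arrays labelled empty, Mst1r and Slpi at a probe in row 27. The log2 difference was 3.11 ± 0.20 (8.62-fold) for Mst1r against empty vector and -0.09 ± 0.24 for Slpi against empty vector. A second probe in row 258, below the rows with stray signal, read 13.6, 57.3 and 11.3. It was well above background on the array labelled Mst1r alone, at least 3.55-fold over empty vector and at least 3.84-fold over Slpi, so both probes gave the same direction.

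The 2 probes of Gm4841 disagreed in size. The brighter one read 2950, 3222 and 2771, a log2 difference of 0.36 ± 0.12 for Mst1r against empty vector. The dimmer one, in row 279, read 4.92, 160 and 3.93 and was well above background on the array labelled Mst1r alone, at least 9.94-fold over empty vector. F830016B08Rik, the remaining gene of this neighbourhood, read 999, 920 and 851, and its log2 differences of 0.11 ± 0.14 and -0.15 ± 0.14 lay near the SD between spots.

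Gm12250 (Irgb10), an effector gene next to Igtp, read 16.0, 45.5 and 13.1 at its brighter probe. It was well above background on the array labelled Mst1r alone, at least 2.82-fold over empty vector and at least 3.05-fold over Slpi, with a signal under the minimum of 50. Its other probe was not above background on any array. Gm12250 held 2 ISRE core matches and 1 GAS match in its promoter.

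Genes with IRG sequence near Irgm1 and Tgtp2 showed no such step at their brighter probes. Gm5431 read 68.5, 61.7 and 62.9, a log2 difference of 0.08 ± 0.40 for Mst1r against empty vector. The brighter probe of 9930111J21Rik1 read 497, 434 and 430, a log2 difference of 0.04 ± 0.14. Its dimmer probe, in row 45, read 22.2, 102 and 22.1, a log2 difference of 2.43 ± 0.40, so its 2 probes disagreed. 9930111J21Rik2 and Gm12185 were not above background on any array, although the promoter of Gm12185 is the closest to that of Tgtp2.

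Irgc1, an IRG gene known from testis, was not above background on any array. Irgq, an IRG-like gene that is not known as interferon-inducible and held neither motif, read 274, 209 and 307 at its brighter probe. The log2 differences there were -0.16 ± 0.20 for Mst1r and 0.24 ± 0.14 for Slpi against empty vector. A dimmer probe in row 31, within the rows with stray signal, read 29.9, 32.4 and 43.6. It gave log2 differences of 0.35 ± 0.50 and 0.62 ± 0.50.

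Guanylate-binding protein (Gbp) genes, whose products help IRG proteins to break vacuoles, were read from a list of 11, of which 10 had a probe. Between the arrays labelled Mst1r and empty vector, 6 had enough signal, 2 of them were at least 2-fold higher, 0 were lower, and all 6 were above 0 with a median log2 difference of 0.77 (4.4%, 3.45% and 42.1% over all features). Gbp5 and Gbp7 passed the minimum of 50 through the array labelled Mst1r alone, which favours a value above 0. The other 4 had log2 differences of 3.96 (Gbp2), 0.60 (Gbp3), 0.57 (Gbp6) and 0.27 (Gbp10). Gbp2 read 295, 3926 and 255, a log2 difference of 3.96 ± 0.13 (15.6-fold) at a probe in row 32. Gbp5 read 35.3, 234 and 33.2, a log2 difference of 2.96 ± 0.40 (7.78-fold) at a probe in row 342, outside the rows with stray signal. Between Slpi and empty vector 0 of these 4 passed 2-fold (2.73% higher and 3.26% lower over all features). The median was -0.10, and the largest difference was that of Gbp6 at -0.14 ± 0.50.

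The chain from receptor to promoter was read from 17 genes of interferon signalling, all with enough signal. Between the arrays labelled Mst1r and empty vector, 3 were at least 2-fold higher, 0 were lower and 13 were above 0, with a median log2 difference of 0.31 (4.4%, 3.45% and 42.1% over all features). The lowest was Ifngr1, a chain of the interferon-gamma receptor, which read 3129, 2059 and 2889, a log2 difference of -0.37 ± 0.12.

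Irf1, an IRF protein that is itself interferon-inducible, read 3070, 5045 and 3157 at a probe in row 1. Its log2 difference was 0.95 ± 0.13 there and 1.04 ± 0.24 at a second probe in row 383, so the probes at the top and the bottom of the array gave similar values. Irf9, the DNA-binding part of the factor that type I interferons activate, had log2 differences of 0.35 ± 0.12 and 0.35 ± 0.14 at its 2 probes. The 3 genes past 2-fold were Socs3, Socs1 and Nlrc5, and 2 genes were past it when probes were averaged or normexp was used.

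Socs3, a feedback inhibitor of cytokine receptors, read 2267, 6543 and 2147, a log2 difference of 1.76 ± 0.13. Socs1, which inhibits the kinases of interferon receptors, read 134, 318 and 124, a log2 difference of 1.48 ± 0.20. Nlrc5, a regulator of class I antigen presentation genes, read 89.1, 189 and 92.5, a log2 difference of 1.32 ± 0.24, whereas a second, dimmer probe in row 34 gave -0.22 ± 0.50. For Slpi against empty vector 0 of 17 passed 2-fold, 9 were above 0 and the median was 0.00 (2.73% higher, 3.26% lower and 50.3% above 0 over all features). Ifnar2, a chain of the type I interferon receptor, was lowest at -0.38 ± 0.12.

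Of 7 interferon genes, 6 had a probe. Ifnb1, which encodes interferon beta, read 144, 383 and 122 on the arrays labelled empty, Mst1r and Slpi. The log2 difference was 1.64 ± 0.20 (3.11-fold) for Mst1r against empty vector and -0.16 ± 0.24 for Slpi against empty vector. Ifng, which encodes interferon gamma, was not above background on any array, and neither were Ifna4 and Ifne. Ifnl3 read 50.1, 46.9 and 51.5, with log2 differences of 0.13 ± 0.50 and 0.12 ± 0.50, and Ifnk was above background on the empty vector array alone.

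**Figure D5:**
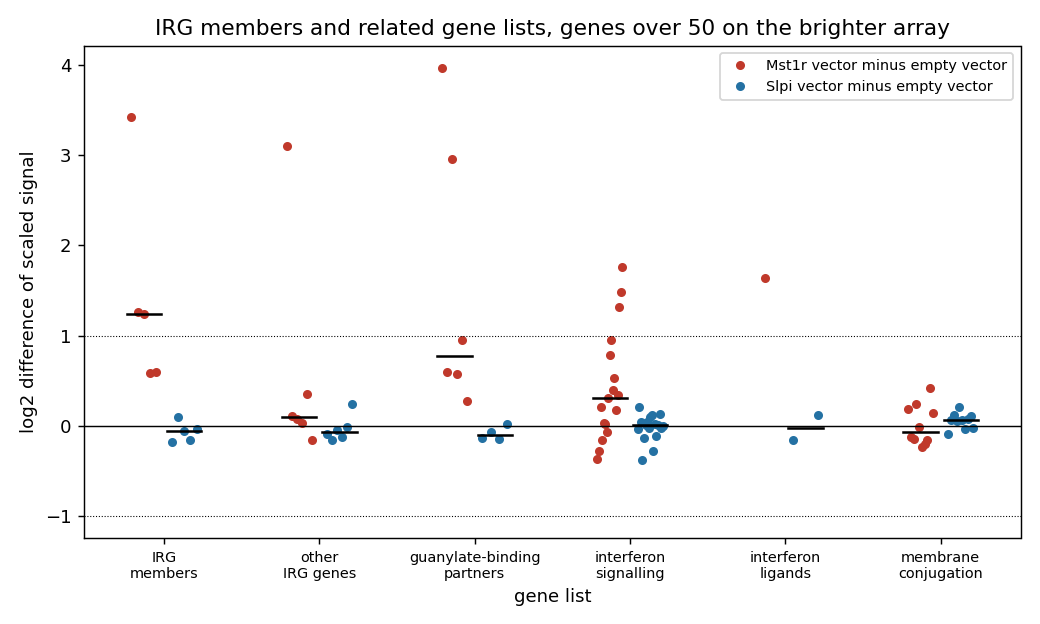
Log2 difference of scaled signal for the 5 IRG members and 5 related gene lists, 1 point per gene with enough signal, with Mst1r against empty vector in red and Slpi against empty vector in blue; black bars are medians and dotted lines mark a 2-fold difference. The median for Mst1r is 1.24 over the members, 0.09 over other IRG genes, 0.77 over guanylate-binding partners, 0.31 over interferon signalling, 1.64 for the single interferon gene (Ifnb1) and -0.07 over conjugation genes, while the Slpi medians lie between -0.10 and 0.06.

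Among 12457 named genes well above background on all 3 arrays, likeness to Iigp1 was measured as the Euclidean distance between the pair of log2 differences from empty vector, over these 3 arrays only. The 5 nearest were Gm4951 at 0.32, Gm10371 at 0.41, Tasp1 at 0.47, Gbp5 at 0.49 and Gbp2 at 0.55. Of these, Gbp5 was the only one with its probe outside rows 1 to 128. Nearest to the median of the members were 4930444P10Rik at 0.02, Fos at 0.03, Igf2r at 0.06, Sox1 at 0.06 and Phf11d at 0.06, with the probes of Fos and Phf11d outside these rows. Fos, an immediate early transcription factor, read 160, 319 and 143, and Phf11d read 307, 640 and 273.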

How the data were processed

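Total RNA of Hepa1c1c7 cells from the 3 groups was labelled (100 ng each) and read on single-colour Agilent arrays of 1 slide. The authors extracted spot intensities with Agilent Feature Extraction 12.0.3.1 (submitters' processing notes), and the deposited intensity (processed signal) is background-subtracted, linear and not scaled between arrays.

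Here, log2 signals were averaged per probe and the 75th percentile over the 56605 non-control probes was subtracted, as the study's methods do. Accessions without version named 32994 probes through RefSeq genes (25126 of 47837 accessions matched), and the brightest probe stood for a gene. Features needed a signal over 50 and above background on the brighter array; 2-fold counted as apart. Where the dimmer array was at background, the fold is a lower bound, with the dim probe raised to the lowest signal above background of its array where it was under it. Spread came from probes with at least 10 spots, 9 to 800 probe and array pairs per signal level. The lists hold 11 other IRG, 11 Gbp, 17 interferon signalling, 7 interferon and 10 conjugation genes.

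Named were the members, the other IRG genes, list genes past 2-fold or with the largest difference, Irf1, Irf9 and the 5 nearest patterns; Stat2, Ifnar1 and the Slpi and Mst1r probes were added after their values were seen. Values of some list genes are not reported here. Members and lists were chosen with earlier results of these data known. Members with an Irgm name or synonym were classed as regulatory and all other members as effector. The lysine or methionine of the GTP-binding site was not read. The script that computes differences was checked on simulated data. Tools were Python 3.11.15, numpy 2.4.6, pandas 2.3.3 and, for normexp background correction, limma 3.58.1 in R 4.3.3. The number of arrays limits the precision.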

Additional observations from a re-analysis of the deposited data

How the results depend on the processing

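The groups (1 array each) were not tested against each other. In 9 other ways of processing, the member differences, the class gap, and the counts and medians of lists and all features were computed again. Folds of 1.5 and 3 were used for the member count only. Values of single genes outside the members were not followed one by one. No member difference called 2-fold changed sign. For Mst1r against empty vector the members ranged over 3.19 to 3.45 (Iigp1), 1.03 to 1.29 (Tgtp2), 1.01 to 1.27 (Igtp), 0.35 to 0.62 (Irgm1) and 0.36 to 0.63 (Irgm2). Slpi differences ran from -0.42 to -0.01 for Iigp1, -0.30 to 0.11 for Igtp, -0.39 to 0.01 for Irgm1, -0.27 to 0.13 for Irgm2 and -0.14 to 0.26 for Tgtp2, lowest with spike-in and highest with median scaling, which shift the median of all features to -0.24 and 0.17. For Mst1r against empty that median was -0.27 without scaling and -0.15 with spike-in scaling, and for Mst1r against Slpi it was -0.18 without scaling, -0.16 with median and 0.10 with spike-in scaling.

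Without rows 1 to 128 Iigp1 has no probe, and 2 of 4 members were past 2-fold in both Mst1r comparisons. The gap between classes was then 0.46 (Mst1r against empty), 0.28 (Mst1r against Slpi) and 0.18 (Slpi against empty), and the member medians were 0.92 and 0.95 for the first 2. Normexp correction gave a gap of 1.30 for Mst1r against Slpi. The member median for Mst1r against Slpi was 1.03 with median scaling, 1.01 without scaling and 1.30 with spike-in scaling, that for Mst1r against empty 1.01 without scaling, and that for Slpi against empty 0.11 with median and -0.30 with spike-in scaling. At 1.5-fold, 5 members were apart for Mst1r against Slpi, and at 3-fold 1 was apart in both Mst1r comparisons. The shares of all features at these folds were not counted, so nothing is read from these numbers.

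Features at least 2-fold higher for Mst1r against empty numbered 790, but 450 with normexp, 235 without rows 1 to 128 and 1372 with no signal minimum, which takes folds against probes at background as they stand. The corresponding counts for Slpi against empty were 487, 277, 61 and 988, and for Mst1r against Slpi 746, 388, 210 and 1367. Those at least 2-fold lower were 620, 240, 52 and 1342 for Mst1r against empty, 580, 250, 19 and 1264 for Slpi against empty, and 483, 227, 60 and 1059 for Mst1r against Slpi. Other IRG genes past 2-fold numbered 3 when all detected probes of a gene were averaged and 2 with no signal minimum, against 1, in both Mst1r comparisons. For interferon signalling, 2 genes in place of 3 were past 2-fold in both Mst1r comparisons with averaged probes and with normexp, 4 for Mst1r against empty without rows 1 to 128, and 1 in place of 0 was lower for Slpi with averaged probes. Without rows 1 to 128, 1 Gbp gene was past 2-fold, against 2. Some list medians for Mst1r against empty, taken less the median of all features, moved too. That of the Gbp genes was 0.81, but 0.52 with normexp and 0.99 with no signal minimum. That of the interferon genes, Ifnb1 alone, was 1.68, but 0.92 without scaling, 0.11 with normexp and 0.17 with no signal minimum. Genes with enough signal can differ by setting, so these medians need not cover the same genes. No paired analysis was possible because each group had 1 array.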

Other observations

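The conjugation system of autophagy, which IRG and guanylate-binding proteins need to find a vacuole, stayed within 2-fold in all 3 comparisons for the 10 genes read (Atg3, Atg5, Atg7, Atg12, Atg16l1, Map1lc3a, Map1lc3b, Gabarap, Gabarapl1 and Gabarapl2). Most features did so too. For Mst1r against empty vector 4.4% of all features were at least 2-fold higher and 3.45% lower. The shares were 2.73% and 3.26% for Slpi against empty vector, and 4.22% and 2.73% for Mst1r against Slpi. Between the arrays labelled Mst1r and empty vector 4 of 10 were above 0, against 42.1% of all features, and the median log2 difference was -0.07. Gabarapl1, which encodes a ubiquitin-like protein of this system, had the largest difference at 0.42 ± 0.13. Between Slpi and empty vector 7 of 10 were above 0, against 50.3% of all features, and the median was 0.06. Atg16l1, which sets where the conjugation takes place, had the largest difference there at 0.20 ± 0.12.

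For some genes of the interferon signalling list, a dim probe in rows 1 to 128 departed from the brighter probe, and the examples given were chosen after their values were seen. Irf7 did not, with log2 differences of 0.45 ± 0.14 in row 21 and 0.53 ± 0.13 at the brighter probe for Mst1r against empty vector. For Ifnar1, a chain of the type I interferon receptor, a probe in row 104 read 42.8, 177 and 31.9 on the arrays labelled empty, Mst1r and Slpi, a log2 difference of 2.28 ± 0.40 for Mst1r against empty vector, whereas the other 2 probes gave 0.20 ± 0.14 and -0.18 ± 0.14. For Stat2, a transcription factor of the type I interferon response, the brighter probe, in row 77, read 1443, 2125 and 1460. Its dimmer probe, in row 32, read 64.5, 19.4 and 6.27 and was above background on the empty vector array alone.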
